A study of Mus musculus with 24 samples.

Results

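The genes described here encode the constitutive proteasome: the 20S core, the 19S cap that recognises and unfolds substrates, the activators that can dock in its place, and the chaperones that build the particle. They were taken by name, as noncontrol probes whose gene name starts with Psm, a letter from a to g and a number, without the inducible genes Psmb8, Psmb9, Psmb10 and Psme1. A probe had to exceed background clearly, in either channel, on 6 or more arrays, and the brightest such probe stood for its gene. Of 45 matching genes, 44 were kept, with 63 of their 70 probes, out of 18085 genes tested. The gene that dropped out was Psmb11, the thymus form of a catalytic subunit. The 44 comprised 8 genes of the 20S alpha ring, 7 of the beta ring, 6 ATPases and 11 non-ATPase subunits of the 19S cap, 3 chaperones of the 19S base and 4 of the 20S core, 3 activator genes, and the inhibitor Psmf1. The name pattern also caught Psmc3ip, a recombination factor that is no proteasome subunit, and kept Psme2 although its partner Psme1 was left out.

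Islets came from female mice of strain NOD/LtJ (NOD), which develops autoimmune diabetes, aged 10 days, 4 weeks, 12 weeks or 20 weeks, with 6 mice per age and no treatment named. The control was strain NOD.B10Sn-H2b/J (NOD.B10), which shares the NOD background but carries another MHC haplotype. RNA of each NOD mouse (300 ng, Cy5) was hybridised with an age-matched pool of RNA from 6 NOD.B10 females (Cy3) on one of 24 two-colour arrays. All values are log2(NOD/pool), so 0 is an equal signal and 1 is 2-fold more in the NOD mouse. The pool of an age was read as 1 control sample used on its 6 arrays. A test against 0 then leaves out the control's own spread, contrasts between ages also carry whatever differs between their pools, and a dye effect on a probe is not removed within an age. Whole islets were measured, so fewer cells of a type and less RNA per cell cannot be told apart.

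The 20S core is a barrel of stacked rings: alpha subunits form the outer gates, and beta subunits form the inner chamber, where Psmb5, Psmb6 and Psmb7 carry the proteolytic sites. Under interferon, cells build Psmb8, Psmb9 and Psmb10 into new particles in their place. The PA28 activator made of Psme1 and Psme2 is induced with them. Particles with the inducible subunits, the immunoproteasome, cut proteins into peptides for MHC class I presentation. Beta cells make large amounts of secretory protein and depend on the proteasome to clear what misfolds, and in inflamed islets infiltrating leukocytes bring proteasomes of their own.

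The probes of the subunit pair that exchange places at the chymotrypsin-like site are shown first, because later results set one against the other. Aligned without gaps, 31 of 50 overlapping bases were identical (62%). Capitals mark identical bases. The Psmb5 probe lies at chr14:55233161-55233220 and the Psmb8 probe at chr17:34337771-34337830 (mm9, minus and plus strand). Exon annotation of this build was not used here.
Psmb5: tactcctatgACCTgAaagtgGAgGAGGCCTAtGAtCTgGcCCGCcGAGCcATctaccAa
Psmb8: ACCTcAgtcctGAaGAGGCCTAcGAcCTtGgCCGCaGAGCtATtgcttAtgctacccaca

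With loess normalization, the NOD signal of the 44 genes was close to that of the pool at every age, with a small excess. Their median log2(NOD/pool), from the youngest age to the oldest, was 0.18, 0.20, 0.19 and 0.23, where the median of all genes lay between -0.01 and 0.03. In single mice the median of the 44 ran from 0.10 to 0.34 and was above 0 in 24 of 24; with each array centred on its median in place of loess, the medians of the 4 ages, in the same order, were 0.90, -0.13, 1.16 and -0.35. Without Psmc3ip and Psme2 the loess medians were 0.20, 0.21, 0.19 and 0.23. The size and the direction of the set as a whole therefore depend on the centring. The values that follow are with loess unless another setting is named, and counts by direction share this limit. The 10 day mouse of replicate 4, at 0.33, stood above the others of its age.

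A gene was called when limma's Benjamini-Hochberg adjusted p, over all genes, was under 0.05 and the change was at least 2-fold. Few of the 44 were called with loess. Under median centring 18 were called higher at 10 days and 30 at 12 weeks. Between successive ages 29 were then lower, 35 higher and 39 lower. In that setting the median of all genes was itself 0.38 at 10 days and 0.50 at 12 weeks. The shares of all genes called under it are not given here. With loess, at 10 days 0 were higher and 0 lower, where 1.61% and 2.36% of all genes were called; at 4 weeks 1 was higher and 0 lower (background 1.91% and 0.879%). The count was 1 higher and 0 lower at 12 weeks (2.09% and 1.42%), and 0 and 0 at 20 weeks (3.87% and 1.23%). With an unadjusted p under 0.05 and the same fold, the counts over the 4 ages were the same. Between ages, 1 call was made: Psme3 was lower at 12 than at 4 weeks, where 0 were higher, against 2.97% higher and 3.07% lower among all genes. From 10 days to 4 weeks (5.15% higher and 3.85% lower among all genes), from 12 to 20 weeks (2.01% and 0.404%) and from 10 days to 20 weeks (7.73% and 4.8%), 0 members were called either way, by adjusted or unadjusted p.

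Without the fold floor, more genes of the set passed higher than lower at each age. At 10 days 22 passed higher and 6 lower, where 27.2% and 23.9% of all genes passed. The counts were 25 and 3 at 4 weeks (24.7% and 26.4%), 23 and 4 at 12 weeks (21.3% and 16.1%), and 26 and 3 at 20 weeks (23.9% and 25.1%). Between ages, 4 passed higher and 13 lower from 10 days to 4 weeks (24% and 26.9% of all genes), 8 and 6 from 4 to 12 weeks (23.5% and 18%), and 5 and 7 from 12 to 20 weeks (11.2% and 15.5%).

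The mice of an age often lay on one side of 0 together. At 10 days all 6 mice were above 0 for 19 of the 44 and below 0 for 6, where 22.1% and 20.1% of all genes were. These counts were 22 and 5 at 4 weeks (21.1% and 24.3%), 24 and 3 at 12 weeks (26.5% and 20.1%), and 18 and 1 at 20 weeks (17.5% and 19.2%). From 10 days to 4 weeks 2 members lay wholly higher and 7 wholly lower (12.4% and 14.3% of all genes). From 4 to 12 weeks 5 and 2 did (14.9% and 10.4%), from 12 to 20 weeks 3 and 3 (4.96% and 7.35%), and from 10 days to 20 weeks 5 and 6 (11.9% and 14.1%).

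Of the 44, 22 had a mean above 0 at all 4 ages (50%, against 14.8% of all genes), and 3, Psmb5, Psmd3 and Psme4, a mean below 0 (6.82%, against 10.6%), though another Psme4 probe was above 0 at each age. Of 15 genes with several kept probes, 7 had probe means on both sides of 0 at the youngest age, followed by 8, 5 and 2 at the later ages. The moderated F test over ages passed in 29 of 44 (65.9%) and in 76% of all genes. The range of the 4 age means had a median of 0.36 over the 44 and 0.50 over all genes. It was under 1, that is under 2-fold, in 42 of 44 (95.5%, against 80.9%). Scanner signals gave 41 of 44 (against 46% of all genes), but under median centring the range was under 1 in 3 of 44 (against 44.8%). With loess the exceptions were the activator genes Psme2, at 1.16, and Psme3, at 1.06; the 4 inducible genes ranged from 1.15 (Psme1) to 1.94 (Psmb8).

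**Figure D1:**
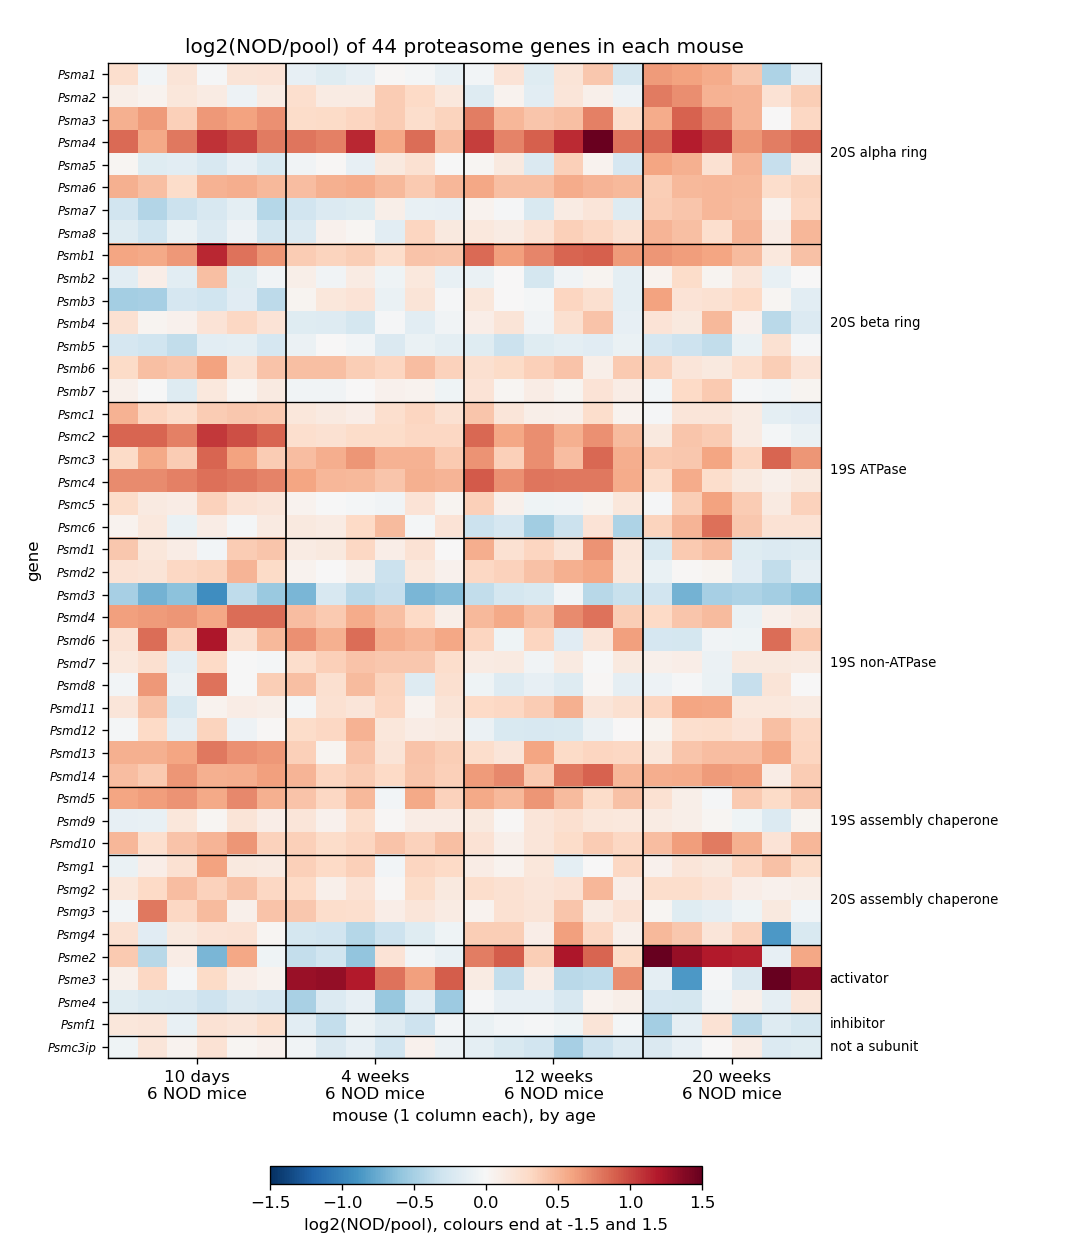
Heat map of log2(NOD/pool) for the 44 genes (rows, grouped by role) in each of 24 mice (columns, grouped by age, 6 per age); red is higher in the NOD mouse and blue higher in the pool, with colours ending at -1.5 and 1.5. Most rows keep one pale shade across the ages, Psma4 is red and Psmd3 blue throughout, and the Psme2 and Psme3 rows change colour between ages.

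The alpha ring, whose subunits gate the core and hold the docking sites for caps and activators, was the group in which the most members passed higher at 20 weeks. All 8 passed, with means from 0.27 (Psma1) to 0.89 (Psma4), where 3 had passed higher and 2 lower at 10 days and 4 had passed higher at 4 and at 12 weeks. From 10 days to 20 weeks 4 of the 8 rose and 0 fell, where 26.2% of all genes rose and 27.7% fell without a fold floor; among the 44, 7 rose and 14 fell. Psma7 moved most, from -0.31 to 0.36, a difference of 0.67. From 10 days to 20 weeks its NOD signal went from 12.55 to 12.60 and its pool signal from 12.86 to 12.24 (normalized log2 signal). Psma5 went from 12.52 to 12.16 in NOD and from 12.67 to 11.88 in the pool. Psma2 went from 12.52 to 13.02 in NOD and from 12.44 to 12.50 in the pool. Over the 4 ages the Psma7 pool signal ranged over 0.62 and its NOD signal over 0.33. Over the 44, the pool range was the larger in 26. Set against the median change of the 44, the alpha ring's median was 0.30 higher with loess, 0.23 with median centring and 0.38 with scanner signals. Psma8, a testis form of Psma7, was dim: its pool signal was not well above background on any 12 week array, so its 12 week mean of 0.23 is uncertain.

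Psma4 was the alpha subunit with the highest ratio at each age. At 10 days its 6 values ran from 0.57 to 1.09 with a median of 0.82, and at 4 weeks from 0.46 to 1.14 with a median of 0.78. At 12 weeks they ran from 0.75 to 1.48 (median 0.97) and at 20 weeks from 0.66 to 1.17 (median 0.85). All 24 mice were above 0 and the ages overlapped. The 12 week mean of 1.02 ± 0.27 (SD, n = 6) was the one call of that age (limma adjusted p = 1.03e-08); without replicate 4 or replicate 5 of that age it fell under 2-fold, with a low of 0.92, and the mean over both probes was 0.91. No difference between ages passed (F test adjusted p = 0.282). The 2 probes are shown because they read separate stretches of the message and gave alike ratios, at most 0.21 apart. The brighter one spans 1347 genomic bases at chr9:54802741-54804087 and the other 200 bases at chr9:54802491-54802690 (mm9, plus strand), so each 60-base probe crosses an intron.
Psma4 brighter probe: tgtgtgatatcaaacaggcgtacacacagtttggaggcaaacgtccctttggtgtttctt
Psma4 other probe: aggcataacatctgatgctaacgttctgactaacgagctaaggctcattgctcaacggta

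In the beta ring the catalytic subunits kept to a narrow range with loess and with scanner signals, but not under median centring, where Psmb5 ran from 0.92 at 12 weeks to -0.74 at 20 weeks, and Psmb6 and Psmb7 also ended below 0 (-0.39 and -0.43). Psmb5, the chymotrypsin-like subunit, had a median of -0.25 at 10 days (-0.37 to -0.14), -0.09 at 4 weeks (-0.21 to 0.01), -0.18 at 12 weeks (-0.33 to -0.10) and -0.18 at 20 weeks (-0.37 to 0.23). Psmb6, the caspase-like subunit, had medians of 0.42, 0.41, 0.32 and 0.23, and was above 0 in all 24 mice. Psmb7, the trypsin-like subunit, stayed near 0, with medians of 0.05, -0.02, 0.11 and 0.01. None of these 3 passed the F test over the ages (adjusted p = 0.318 for Psmb5, 0.0902 for Psmb6 and 0.345 for Psmb7). Over the whole ring of 7, 2 members passed higher and 2 lower at 10 days, where 27.2% and 23.9% of all genes did, and 3 and 1 at 20 weeks (23.9% and 25.1%). The structural subunit Psmb1 had the highest mean of the ring at 10 days (0.74), 12 weeks (0.77) and 20 weeks (0.49). Psmb3 had the lowest at 10 days, -0.35, where its other probe gave 0.30.

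The inducible partners of the catalytic subunits covered a wider range. Psmb8 had medians of 0.60 at 10 days (-0.35 to 1.76), 0.91 at 4 weeks (-0.11 to 1.84), 2.70 at 12 weeks (2.03 to 3.14) and 2.31 at 20 weeks (1.04 to 3.12). Psmb9 had medians of 0.16 (-0.30 to 1.16), 0.87 (0.49 to 1.40), 2.08 (1.77 to 2.38) and 1.68 (1.18 to 2.62). Psmb10 had medians of -0.78 (-1.64 to -0.27), 0.71 (0.54 to 1.23), 0.36 (-0.23 to 0.54) and 0.79 (0.41 to 1.99). Every 12 week mouse was above every 4 week mouse in Psmb8 and in Psmb9, as 14.9% of all genes were. Psmb10 at 10 days lay below every 4 week mouse (12.4% of all genes) and every 20 week mouse (11.9%). In the pool channel Psmb10 itself ran from 12.86 at 20 weeks to 13.74 at 10 days (normalized log2 signal, SD 0.07 and 0.02 over 6 arrays), so its ratio includes a difference between the pools. Psmb8 and Psmb9 lie in the MHC region, where the strains differ, and sequence differences under their probes were not tested.

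**Figure D2:**
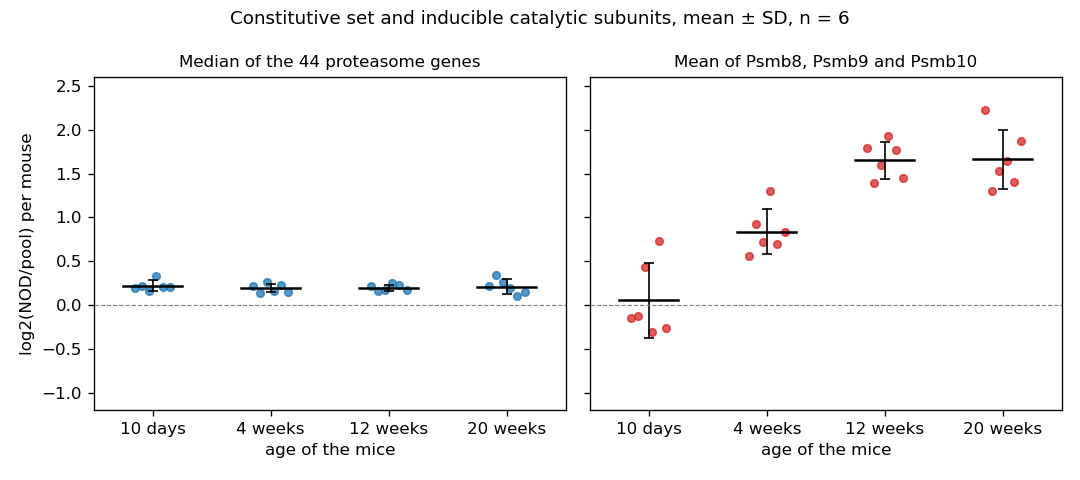
Left, the median log2(NOD/pool) of the 44 genes in each mouse; right, the mean of Psmb8, Psmb9 and Psmb10 in the same mice, by age (points are mice, bars mean ± SD, n = 6). With loess, the left points lie between 0.10 and 0.34, and the right ones run from -0.31 to 0.73 at 10 days and from 1.30 to 2.22 at 20 weeks.

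RNA of the paired subunits was compared within each mouse, as the ratio of the inducible minus that of the constitutive gene, so that a constant shift of an array cancels. Exchange of subunits in the particle was not measured. Psmb8 minus Psmb5 ran from -0.20 to 1.90 at 10 days (median 0.87) and from 0.81 to 3.37 at 20 weeks (median 2.54), and the ages overlapped. The mean difference between these ages was 1.45 (exact permutation test, two-sided, p = 0.01732, Benjamini-Hochberg over the 3 pairs 0.01732). Psmb9 minus Psmb6 ran from -0.89 to 0.93 (median -0.19) and from 0.82 to 2.28 (median 1.48). Its difference was 1.57 (exact permutation p = 0.004329, adjusted 0.006494). Psmb10 minus Psmb7 ran from -1.72 to -0.43 (median -0.71) and from 0.11 to 2.03 (median 0.82), without overlap. Its difference was 1.78 (exact permutation p = 0.002165, the smallest that 6 against 6 mice can give, adjusted 0.006494). Replicates 5 and 6 had its highest 20 week values, 2.03 and 1.47, and the others ran from 0.11 to 0.97. Replicate 5 was the lowest of its age in Psmb8 minus Psmb5 (0.81) and in Psmb9 minus Psmb6 (0.82). The permutation tests do not cover differences between the pools of the ages or between slides, as no slide held both 10 day and 20 week mice. At 12 weeks the pairs stood at 2.81 ± 0.42, 1.74 ± 0.25 and 0.18 ± 0.24 (SD, n = 6); under median centring the last was 0.35 ± 0.22.

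**Figure D3:**
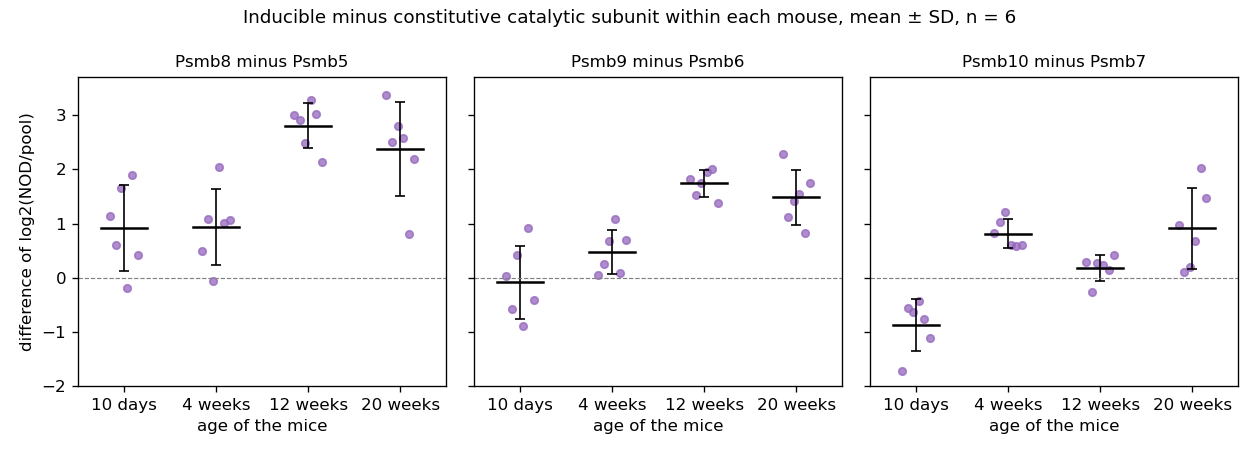
Difference of log2(NOD/pool) between each inducible catalytic subunit and its constitutive partner in single mice, by age (points are mice, bars mean ± SD, n = 6). Psmb8 minus Psmb5 and Psmb9 minus Psmb6 are highest at 12 weeks, at 2.81 and 1.74, and Psmb10 minus Psmb7 goes from -0.87 at 10 days to 0.91 at 20 weeks with a lower mean at 12 weeks, 0.18.

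The ATPases of the 19S base, which unfold substrates and open the gate, passed higher in 5 of 6 at 10 days, 4 weeks and 20 weeks (27.2%, 24.7% and 23.9% of all genes) and in 4 of 6 at 12 weeks (21.3%), when Psmc6 passed lower at -0.28. The other Psmc6 probe was below 0 at 10 days (-0.29) and 4 weeks (-0.10), against 0.06 and 0.20. Psmc2 had the highest ratio of all 44 at 10 days, with values from 0.76 to 1.06 and a median of 0.87. Its values ran from 0.23 to 0.32 at 4 weeks (median 0.27), from 0.48 to 0.86 at 12 weeks (median 0.63) and from -0.10 to 0.41 at 20 weeks (median 0.14). The 10 day mice lay above every 4 week and every 20 week mouse. The fall of the ratio from 10 days to 4 weeks was -0.63 ± 0.08 (SE, limma adjusted p = 2.25e-06). That from 10 days to 20 weeks was -0.74 ± 0.08 (limma adjusted p = 1.16e-07). Within the slide that held both ages, with 2 mice of each, the first was -0.68. At 10 days, 4 weeks and 20 weeks the Psmc2 signal was 12.04, 11.91 and 11.59 in NOD. In the pool it was 11.14, 11.64 and 11.43. Over the 4 ages its pool signal ranged over 0.67 and its NOD signal over 0.45. Psmc4 fell from 0.75 at 10 days to 0.24 at 20 weeks, while Psmc3 stayed between 0.52 and 0.60 (F test adjusted p = 0.85).

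The non-ATPase subunits, which form the lid and bind ubiquitin, had 5 of 11 members that fell from 10 days to 20 weeks and 0 that rose, where 27.7% and 26.2% of all genes did. Whether this differs from the alpha ring was not tested. The ratio of the ubiquitin receptor Psmd4 fell from 0.70 to 0.22, a difference of -0.48 (pool range 0.50, NOD range 0.30). That of Psmd2, a base scaffold, fell from 0.31 to -0.12, a difference of -0.43. Between these ages the Psmd2 signal went from 11.25 to 11.27 in NOD and from 10.94 to 11.39 in the pool. Set against the median change of the 44, the group's median was -0.21 with loess, -0.04 with median centring and -0.28 with scanner signals. Psmd14, the deubiquitinase of the lid, had means from 0.38 to 0.65 and did not pass between 10 days and 20 weeks (-0.06). The pool signal of Psmd13, a lid subunit, was not well above background on any 12 week array, so its 12 week mean of 0.33 is uncertain.

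Psmd3, a lid scaffold, was below 0 in all 24 mice with loess. Its values ran from -0.93 to -0.39 at 10 days (median -0.59), from -0.68 to -0.24 at 4 weeks (-0.52), from -0.42 to -0.04 at 12 weeks (-0.30) and from -0.71 to -0.29 at 20 weeks (-0.50). It had the lowest mean of the 44 at 10 days (-0.62), 4 weeks (-0.50) and 20 weeks (-0.51), and passed lower at each age (limma adjusted p from 1.2e-07 to 0.00277); under median centring the 10 day mean was 0.11. Against the median of the 44 on the same array, its mean was -0.84 at 10 days with loess and also with median centring. At 12 weeks the lowest mean was that of Psmc3ip, -0.28, which was 0.55 under median centring and 0.02 on its other probe.

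Chaperones that assemble the particle were counted beside the 27.2%, 24.7%, 21.3% and 23.9% of all genes that passed higher from the youngest age to the oldest. Of the 19S chaperones, Psmd5 had 0.62 at 10 days and 0.23 at 20 weeks, and Psmd10 had 0.45 and 0.52. All 3 passed higher at 4 and at 12 weeks, with Psmd9 lowest at 0.13 and 0.15; the other Psmd9 probe was below 0 at each age, with -0.29 and -0.03 there. Of the 20S chaperones Psmg1 to Psmg4, 3 of 4 passed higher at 10 days, 4 weeks and 12 weeks, and 2 of 4 at 20 weeks. Psmg3 fell by 0.38 from 10 days to 20 weeks. The inhibitor Psmf1 (PI31), which binds the 20S core, went from 0.15 at 10 days to -0.19 at 4 weeks and -0.21 at 20 weeks, and passed lower at both later ages.

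The activators, which open the alpha gate without ATP or ubiquitin, held both genes whose age means ranged over more than 2-fold. Psme2, the beta subunit of PA28, ran from -0.68 to 0.57 at 10 days (median 0.02) and from -0.59 to 0.21 at 4 weeks (median -0.20). It ran from 0.29 to 1.21 at 12 weeks (median 0.82) and from -0.12 to 1.63 at 20 weeks (median 1.18). Every 12 week mouse was above every 4 week mouse, as 14.9% of all genes were, while 1 of the 20 week mice fell among the young ones. The rise from 4 to 12 weeks was 0.93 ± 0.25 (SE; limma adjusted p = 0.0054) and that from 10 days to 20 weeks 0.97 ± 0.25 (adjusted p = 0.0021), both just under 2-fold; under median centring the second was -0.41. Against the median of the 44 on the same array, a comparison chosen after seeing the data, Psme2 stood at -0.23 at 10 days and 0.75 at 20 weeks with loess, at -0.22 and 0.67 with median centring, and at -0.25 and 0.74 with scanner signals.

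Psme1, the alpha subunit of PA28, which was left out of the set by name, had means of -0.02, -0.20, 0.95 and 0.71, beside -0.01, -0.20, 0.73 and 0.96 for Psme2. The Psme2 signal ranged over 1.63 between ages in the NOD channel and over 0.59 in the pool channel. Both Psme2 probes are shown because they differed by up to 0.52, at 10 days. The second had 0.50, 0.09, 1.08 and 1.06 from the youngest age to the oldest, so its rise from 10 days to 20 weeks was the smaller. The 2 probes lie at chr14:56206335-56206394 and chr14:56206927-56207124 (mm9, minus strand). RefSeq also lists a copy gene, Psme2b, on another chromosome, and whether the probes tell them apart was not tested.
Psme2 brighter probe: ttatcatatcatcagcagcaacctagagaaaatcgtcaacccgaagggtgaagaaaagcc
Psme2 other probe: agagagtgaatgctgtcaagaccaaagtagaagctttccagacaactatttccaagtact

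Markers of leukocytes moved with Psme2. The median over 12 measured macrophage and dendritic cell markers ran from -0.73 to 0.44 in the 10 day mice, -0.37 to 0.41 at 4 weeks, 0.96 to 1.44 at 12 weeks and 0.76 to 2.11 at 20 weeks. Of these markers 10 passed higher at 12 weeks and 11 at 20 weeks, where 21.3% and 23.9% of all genes did. At 12 weeks 1 marker went the other way and was called lower, at -1.87. In the NOD channel 11 were above background on all 24 arrays. Of 13 T cell markers, 12 passed higher at both ages, beside the same shares of all genes. Of these, 5 of 13 were above background in the NOD channel of all arrays. The 20 week mouse with the lowest Psme2, replicate 5 at -0.12, also had the lowest macrophage and dendritic cell median of its age, 0.76. Their part in the Psme2 values was not tested. The 20 week replicates 5 and 6 also had the fewest probes above background in the NOD channel (42.3% and 47.7%, against 51.4% to 64.6% in the other 4); without both, Psme2 at 20 weeks was 1.33 ± 0.22 (SD, n = 4) and was called, as was its rise from 10 days.

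Psme3, which forms the nuclear activator PA28 gamma, was set apart by its 4 week mice. Its values ran from -0.01 to 0.32 at 10 days (median 0.09), 0.62 to 1.32 at 4 weeks (1.05), -0.41 to 0.69 at 12 weeks (-0.12) and -0.87 to 1.62 at 20 weeks (-0.08). Every 4 week mouse was above every 10 day mouse, as 12.4% of all genes were, and the 20 week mice spread over a wider range than those of any other age. The 4 week mean of 1.02 ± 0.29 (SD, n = 6) was called (limma adjusted p = 0.000449), and the difference from 4 to 12 weeks was -1.06 ± 0.31 (SE; adjusted p = 0.00854). The signal itself ranged over 1.38 between ages in the NOD channel and over 1.16 in the pool. From 4 to 12 weeks it went from 9.30 to 8.79 in NOD and from 8.28 to 8.82 in the pool. Over the 6 arrays of 12 weeks its SD was 0.86 in NOD and 0.555 in the pool, beside 0.43 in the ratio. At 4 weeks the pool SD was 0.26. The 4 week mean and the difference from 4 to 12 weeks lay near the fold floor. Without replicate 1, 2 or 3 at 4 weeks the mean had a low of 0.97 and was not called. Without replicate 2, 4 or 5 at 12 weeks the difference was as small as -0.99. The rise from 10 days to 4 weeks was 0.89 ± 0.31 (SE, limma adjusted p = 0.0186), not called. With slide as a block it was 1.23 and called, but this rests on the slide that held both ages, with 2 mice of each. The 4 week mice there, replicates 1 and 2, had the highest Psme3 of their age, 1.30 and 1.32. Under median centring the difference from 4 to 12 weeks was 0.21; against the median of the 44 on the same array, Psme3 stood at 0.79 at 4 weeks and -0.31 at 12 weeks under that centring, beside 0.83 and -0.23 with loess.

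Markers of acinar cells, the exocrine cells that surround islets, moved with Psme3. All 14 were measured and above background in both channels of all 24 arrays. Their median ran from 1.10 to 1.87 in the 4 week mice, when 12 of 14 passed higher (24.7% of all genes). It ran from -1.53 to 0.61 at 10 days and from -1.10 to 0.86 at 12 weeks. At 20 weeks the mice with the highest Psme3, replicates 5 and 6 at 1.62 and 1.35, had acinar medians of 2.07 and 1.58, and replicate 2, lowest in Psme3 at -0.87, had -2.38. Without replicates 5 and 6 the 20 week Psme3 values ran from -0.87 to -0.02. The part of acinar RNA in the Psme3 values was not tested. Psme4, which forms the activator PA200, had means of -0.24, -0.35, -0.06 and -0.07 and passed lower at 10 days and 4 weeks on its brightest probe. Another kept probe, above background on all 24 arrays, gave 0.04, 0.25, 0.15 and 0.13, so the direction of Psme4 turns with the probe.

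**Figure D4:**
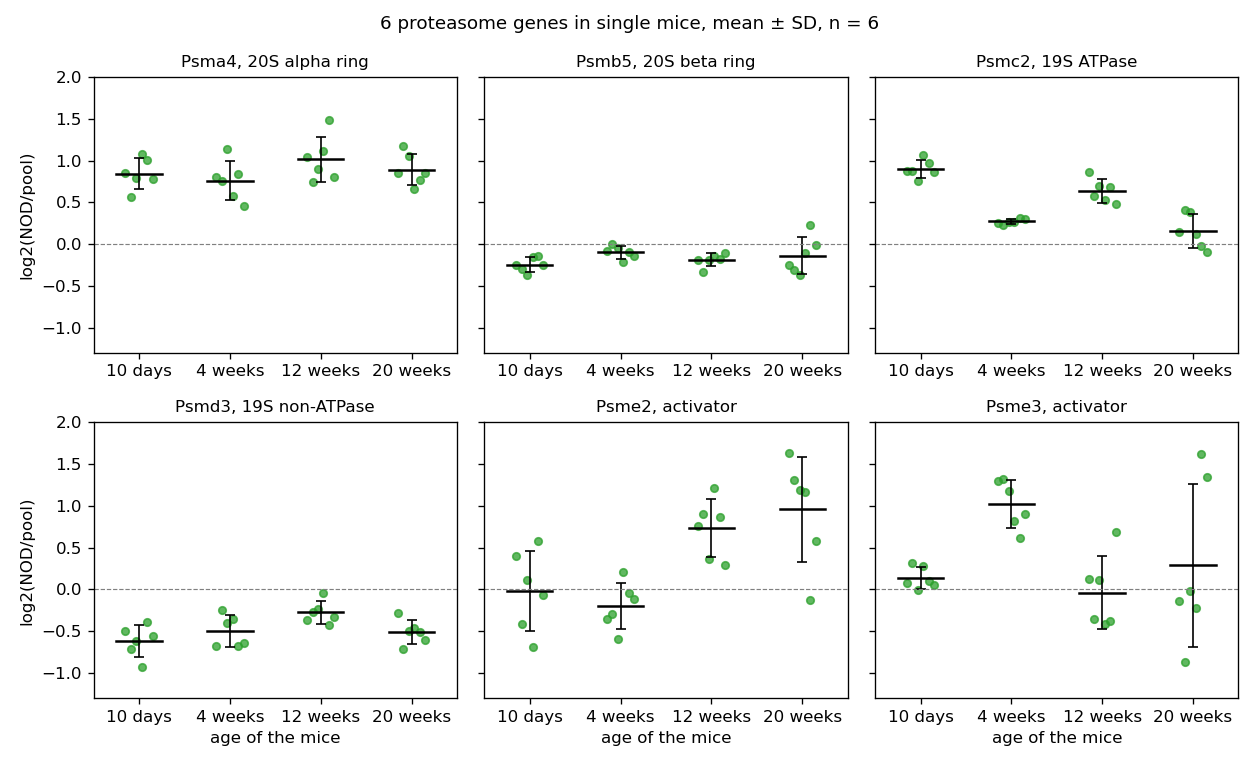
log2(NOD/pool) of 6 genes in single mice, by age (points are mice, bars mean ± SD, n = 6). With loess, Psma4 lies above 0 and Psmd3 below 0 in all 24 mice, Psmb5 stays near 0, Psmc2 is highest at 10 days (mean 0.90), Psme2 is above 0 at 12 weeks in 6 of 6, and Psme3 is highest at 4 weeks (mean 1.02) and widely spread at 20 weeks.

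**Figure D5:**
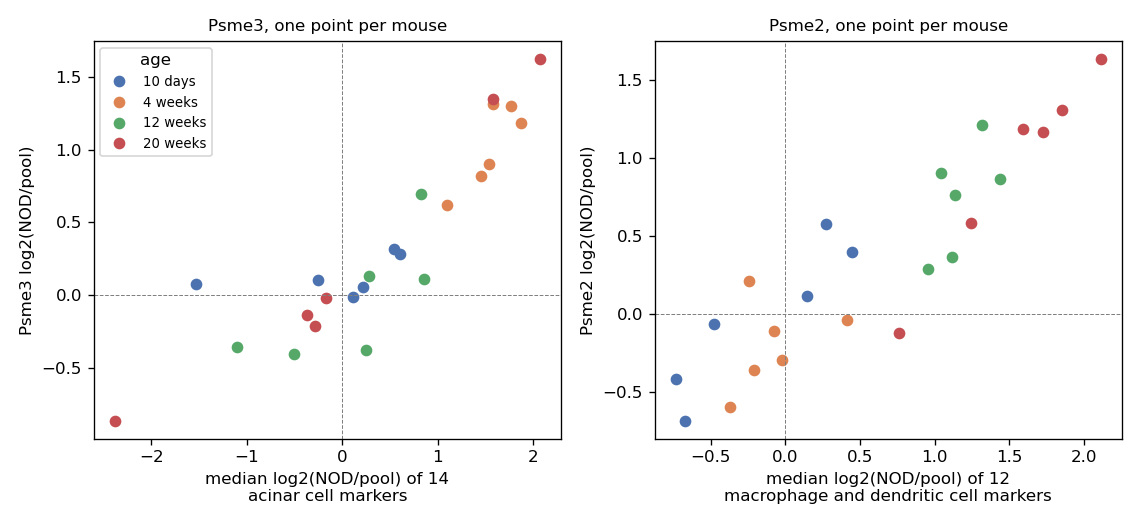
Left, Psme3 against the median of 14 acinar cell markers; right, Psme2 against the median of 12 macrophage and dendritic cell markers, both as log2(NOD/pool) with 1 point per mouse, coloured by age. The 4 week mice and 20 week replicates 5 and 6 lie at the upper right of the left panel, and the 12 and 20 week mice at the right of the other.

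Beta cell markers moved as well. The beta cell marker median ran from 0.42 to 1.70 at 10 days and from -2.33 to -0.68 at 20 weeks. At 20 weeks all 14 measured markers passed lower, where 25.1% of all genes did. With loess the median of the 44 proteasome genes kept to 0.10 to 0.34 over all 24 mice. Under median centring it did not, with 0.90, -0.13, 1.16 and -0.35 from the youngest age to the oldest. Residuals from the age means had a median pairwise correlation of 0.14 among the 44, with Psma3 at 0.44 and Psme3 at -0.37 against the rest, and 0.02 among all genes, over 24 arrays that share a normalization.

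Of the factors that bind or regulate the proteasome, 25 of 28 listed were measured; at 10 days 8 passed higher and 9 lower, where 27.2% and 23.9% of all genes did, and at 20 weeks 6 and 6 (23.9% and 25.1%), with medians of 0.04 and -0.02. Nfe2l1, the transcription factor that raises proteasome genes when capacity falls short, was low: its medians were -0.22, -0.76, -0.69 and -0.33, and it passed lower from 4 weeks on. Ddi2, the protease that activates it, had means of -0.41, -0.38, -0.03 and -0.23. Nfe2l2, the oxidative stress factor, had 0.30 at 20 weeks and rose by 0.56 from 10 days. Pomp, the chaperone that matures the core, had 0.52, 0.21, 0.70 and 0.51 and was above 0 in all 24 mice. Of the proteins bound to the cap, the deubiquitinase Uchl5 had 0.35, 0.86, 0.65 and 0.83, Usp14 had 0.13 to 0.15, and the ubiquitin receptor Adrm1 rose from -0.37 at 10 days to 0.02 at 20 weeks. The one call in the list was Zfand2a, an arsenite-inducible proteasome adaptor, which fell by 1.09 from 10 days to 4 weeks (limma adjusted p = 0.00556).

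Of 24 measured genes for ubiquitin, its activation and p97, 6 passed higher and 6 lower at 20 weeks, where 23.9% and 25.1% of all genes did, with a median of -0.07. The conjugating enzyme Ube2k was called at 12 weeks (1.21) and Rps27a, a ubiquitin fusion gene of the ribosome, between 10 days and 20 weeks (1.14). Of 15 immunoproteasome and antigen processing genes, 11 passed higher at 12 weeks and 14 at 20 weeks, with medians of 0.81 and 1.00, where 21.3% and 23.9% of all genes did. At 20 weeks Ubd (FAT10) stood at 3.62 and B2m at 2.90.

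Promoter windows of 300 bases, 250 before to 50 after the start site (RefSeq, GRCm38.p6), were found for 36 of the 44. The core of the interferon-stimulated response element, GAAANNGAA on either strand, occurred in 6 of 36 (16.7%, Psmb3, Psmb4, Psmc2, Psmd4, Psmd9 and Psmg4) and in 9.76% of 27025 genes. It was in the window of Psme1 and in neither of the 2 windows of Psme2. Whether the motif relates to the ratios was not tested. The Psme1 match starts 10 bases after the start site, in chr14:55578494-55578523 (plus strand), with the motif in capitals.
Psme1: gagctgtgctTTCGCTTTCccttcccgctg
The antioxidant-type core TGACNNNGC, bound by Nfe2l1 and Nfe2l2, occurred in 6 of 36 (16.7%, Psmb5 and Psmb6 among them) and in 14% of all genes, the interferon-gamma type TTCNNNGAA in 5.56% and 9.55%, and CCAAT in 36.1% and 41.1%. These are matches of letters in a short window, and binding was not measured.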

How the data were processed

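The arrays were Agilent 4×44K two-colour arrays (design 014868). Per the file headers, Feature Extraction 10.7.3.1 wrote the deposited files, which give the spot intensity and background of each channel and a log10 ratio after dye normalization by the scanner software. The authors' deposited value table holds log2 ratios of 22122 entries, with a slope of 1 against that ratio; its column medians ran from -0.18 to 0.09, so it was not centred.

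In R 4.3.3 with limma 3.58.1, signals were corrected by normexp (offset 50) and normalized by loess within each array, with no weight on 1639 control spots; 25931 of 41174 probes were kept. Coordinates are those of the files (mm9); gene names came from RefSeq (GRCm38.p6) by accession (27050 probes) or symbol. In limma each age had its own mean, over 18085 genes and all arrays (recovery of known changes was checked on simulated data). Median pairwise correlation of arrays within an age was 0.69 to 0.81; 11 pairs of different ages were below -0.3 (lowest -0.54), with the dyes as labelled. The 24 arrays filled 6 slides. Slides 1 to 3 held only 10 day and 4 week mice, and slides 4 to 6 only 12 and 20 week mice. Differences from 4 to 12 weeks and from 10 days to 20 weeks therefore cannot be told apart from differences between slides. The number of arrays limits the precision.

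Members, marker lists and tests were chosen with earlier results of these data known. Named were called genes, the highest and lowest member of each age, catalytic, inducible and activator genes, and listed regulators; the other members named were chosen after their values were seen. Alternatives were scanner signals, median centring, the deposited table, other filters and probe rules, slide and replicate blocks, and left-out mice. Replicates are different mice.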

Additional observations from a re-analysis of the deposited data

Results flagged for a closer look

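Among 6 mice of an age, 1 value stood apart from the rest in 3 of 60 groups checked, where chance gives about 1 in 20. Psmb5 in 12 week replicate 2 was at -0.33, with the nearest mouse at -0.185. Psmb10 in the same mouse was at -0.23, with the nearest at 0.28. The median of the 44 proteasome genes in 10 day replicate 4 was 0.33, with the nearest at 0.22.

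The ratio against the pool differed between ages in 4 results. Psme3 differed by -1.06 between 4 and 12 weeks (limma adjusted p = 0.00854). Psmb8 minus Psmb5 differed by 1.45 between 10 days and 20 weeks, Psmb9 minus Psmb6 by 1.57 and Psmb10 minus Psmb7 by 1.78, each by an exact permutation test (adjusted p = 0.0173, 0.00649 and 0.00649).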

How the results depend on the processing

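The 3 pair differences kept their direction and passed under scanner signals, median centring, the deposited table, the mean over probes and each left-out mouse; their ranges without single mice were 1.23 to 1.76 for Psmb8 minus Psmb5, 1.41 to 1.77 for Psmb9 minus Psmb6 and 1.56 to 1.94 for Psmb10 minus Psmb7. Replicate numbers name different mice and did not pair the samples (11 of 36 same-number pairs correlated over 0.1); with a replicate block the pairs had the same values, 1.45, 1.57 and 1.78, with adjusted p = 0.0625 each by exact sign flips, and no count of called members moved.

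With scanner signals and with the deposited table alike, 2 members were called higher at 10 days, 3 at 12 weeks, 1 at 20 weeks, 2 from 4 to 12 weeks and 1 from 10 days to 20 weeks. With the mean over probes 0 were called higher at 12 weeks and 1 at 20 weeks, and the medians were 0.25 at 10 days and 0.23 at 12 weeks. With slide as a fixed block 1 was called higher from 10 days to 4 weeks, resting on 2 mice of each age on the slide that held both. Without 20 week replicates 5 and 6, 1 was called higher at 20 weeks and 1 from 10 days to 20 weeks. The shares of all genes called are not given for the settings of this paragraph.

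Median centring moved the median of all genes to 0.38, -0.15, 0.50 and -0.21 at the 4 ages, and that of the members to 0.90, -0.13, 1.16 and -0.35. Then 18 members were called higher at 10 days, 0 at 4 weeks and 30 at 12 weeks, and 1 lower at 20 weeks. The shares of all genes called in this setting are not given here. Between ages 29 were lower from 10 days to 4 weeks, 35 higher and 0 lower from 4 to 12 weeks, 39 lower from 12 to 20 weeks and 35 lower from 10 days to 20 weeks; 44 passed the F test. Reversed values were 0.21 for Psme3 from 4 to 12 weeks, -0.41 for Psme2 from 10 days to 20 weeks, 0.11 for Psmd3 at 10 days and 0.55 for Psmc3ip at 12 weeks; the cause was not tested.

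Without the fold floor 22 passed higher and 6 lower at 10 days, 25 and 3 at 4 weeks, 23 and 4 at 12 weeks, 26 and 3 at 20 weeks, 4 and 13 from 10 days to 4 weeks, 8 and 6 from 4 to 12 weeks, 5 and 7 from 12 to 20 weeks, and 7 and 14 from 10 days to 20 weeks. Leaving out single mice gave 0 to 1 called higher at 4, 12 and 20 weeks, from 4 to 12 weeks and from 10 days to 20 weeks, 0 to 1 lower from 4 to 12 weeks, and 25 to 32 by the F test. The count stayed at 0 for the other calls. Both probe filters and slide as a random block kept every count within 1.5 times its value. A slide block cannot separate slide from age between 4 and 12 weeks or between 10 days and 20 weeks, as no slide held both ages.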
